A study of Mus musculus with 24 samples.

Results

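The mir-29 family in these data comprised 4 precursors, mmu-mir-29a, mmu-mir-29b-1, mmu-mir-29b-2 and mmu-mir-29c, taken by name from the 1180 precursors counted by small RNA-Seq. All 4 were among the 500 precursors with enough reads to test. The samples were nucleus accumbens (NAc) punches of C57BL/6J mice aged 9 weeks, and no group carried a transgene or deletion. Nonstressed males (NSM) and nonstressed females (NSF) were compared with males (SM) and females (SF) exposed to Subchronic Variable Stress (SCVS), an alternation of foot shock, tail suspension and restraint, and the study used only females in estrus or proestrus. Each group held 3 small RNA and 3 mRNA libraries, and each library was made from a pool of 10 punches of 5 mice, so the spread between libraries was a spread between pools and not between single animals.

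MicroRNAs (miRs) guide the Argonaute protein to messenger RNAs that pair with their seed, the bases near their 5′ end, and the bound messages are translated less or decay faster. The mir-29 family is known for holding down collagens and other matrix genes, enzymes that add or remove DNA methylation, and BH3-only proteins that start apoptosis. In the brain its members are scarce in the embryo and abundant in mature neurons and glia.

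The mature forms are printed because they define the family and because 2 of the 4 precursors cannot be told apart by their 3p arm. Sequences are those of RefSeq on build GRCm38.p6, all 4 members matched, and capitals mark the seed (bases 2 to 8).
mmu-miR-29a-3p: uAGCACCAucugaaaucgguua
mmu-miR-29b-3p: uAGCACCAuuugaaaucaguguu
mmu-miR-29c-3p: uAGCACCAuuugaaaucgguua
The seed was identical in all of them, and no other mature form in the RefSeq table used here held it. Positions are counted from 1 at the 5′ end. mmu-miR-29c-3p differed from mmu-miR-29a-3p at 1 of 22 positions (C10U). mmu-miR-29b-3p differed from mmu-miR-29a-3p at 4 of 22 positions (C10U, G18A, U21G and A22U) and from mmu-miR-29c-3p at 3 (G18A, U21G and A22U).

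The counts used here are per precursor, so the 5p and 3p arms were not resolved and a change in 1 arm could not be examined. The 4 hairpins are given with both mature arms in capitals.
mmu-mir-29a: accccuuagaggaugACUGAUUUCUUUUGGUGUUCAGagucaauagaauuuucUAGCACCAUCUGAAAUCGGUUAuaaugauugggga
mmu-mir-29b-1: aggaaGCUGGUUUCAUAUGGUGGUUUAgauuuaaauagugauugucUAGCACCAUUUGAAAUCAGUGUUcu
mmu-mir-29b-2: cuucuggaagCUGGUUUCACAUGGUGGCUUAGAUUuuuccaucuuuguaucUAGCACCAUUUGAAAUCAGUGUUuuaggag
mmu-mir-29c: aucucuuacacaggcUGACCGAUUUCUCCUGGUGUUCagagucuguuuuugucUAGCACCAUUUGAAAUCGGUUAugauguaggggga
The 3p arms of mmu-mir-29b-1 and mmu-mir-29b-2 are the same sequence, while their 5p arms and loops differ. Each hairpin matched the NCBIM37 genome at 1 place on its chromosome. On the minus strand lay mmu-mir-29a at chr6:31012660-31012747 and mmu-mir-29b-1 at chr6:31013023-31013093, with 275 bases between them. No gene model of GENCODE M1 other than the precursors themselves covered this pair. On the plus strand lay mmu-mir-29b-2 at chr1:196863234-196863314 and mmu-mir-29c at chr1:196863741-196863828, with 426 bases between them. Both lay within an exon (chr1:196860017-196864102) of the long intergenic noncoding RNA (lincRNA) A330023F24Rik.

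The family was abundant. It took between 6.85% and 8.86% of the reads of a small RNA library, whose totals ranged from 5086554 to 13522287 reads. By mean reads, mmu-mir-29b-2 ranked 3 of the 1180 precursors, mmu-mir-29b-1 ranked 5, mmu-mir-29a ranked 38 and mmu-mir-29c ranked 79. How reads that match both mir-29b loci were assigned was not given in the sources used here. The share of the family and the ranks of the mir-29b rows may depend on that assignment. The lowest member count in any library was 11114 reads, for mmu-mir-29c, so counting error was small beside the spread between pools. The mRNA libraries held between 41076780 and 60867747 reads.

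Levels are given as CPM, counts scaled to library size with TMM factors, which compares libraries. For mmu-mir-29a, the most even of the members, the NSM libraries held 8162, 8663 and 8518 CPM and the SM libraries 9774, 8519 and 8323 CPM. The NSF libraries held 8605, 8103 and 8779 CPM and the SF libraries 8612, 7911 and 8700 CPM. One SM library was the highest of all 12, and every group overlapped every other.

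For mmu-mir-29b-1, the NSM libraries held 29103, 32361 and 26866 CPM and the SM libraries 28210, 27033 and 22884 CPM. The NSF libraries held 28641, 27505 and 23563 CPM and the SF libraries 27757, 23097 and 25544 CPM. The groups overlapped, with the highest value in an NSM library and the lowest in an SM library. For mmu-mir-29b-2, the NSM libraries held 43624, 48898 and 40191 CPM and the SM libraries 43044, 40617 and 34917 CPM. The NSF libraries held 42946, 41459 and 35605 CPM and the SF libraries 41722, 34900 and 38199 CPM. The same NSM library was again the highest of the 12, and the groups again overlapped.

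For mmu-mir-29c, the NSM libraries held 1980, 2140 and 2118 CPM and the SM libraries 2412, 2120 and 2054 CPM. The NSF libraries held 1908, 1885 and 1982 CPM and the SF libraries 2134, 1823 and 2152 CPM. The NSF libraries were closest together, lay within the range of the SF libraries and did not overlap the SM libraries, a pair of groups that differ in both sex and stress and were not compared. In each of the 4 comparisons of 2 groups, 0 of the 4 members had groups that did not overlap. Of the 500 tested precursors, 19.6% did so for SM against NSM, 13.6% for SF against NSF, 23.2% for NSF against NSM and 13.0% for SF against SM.

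**Figure D1:**
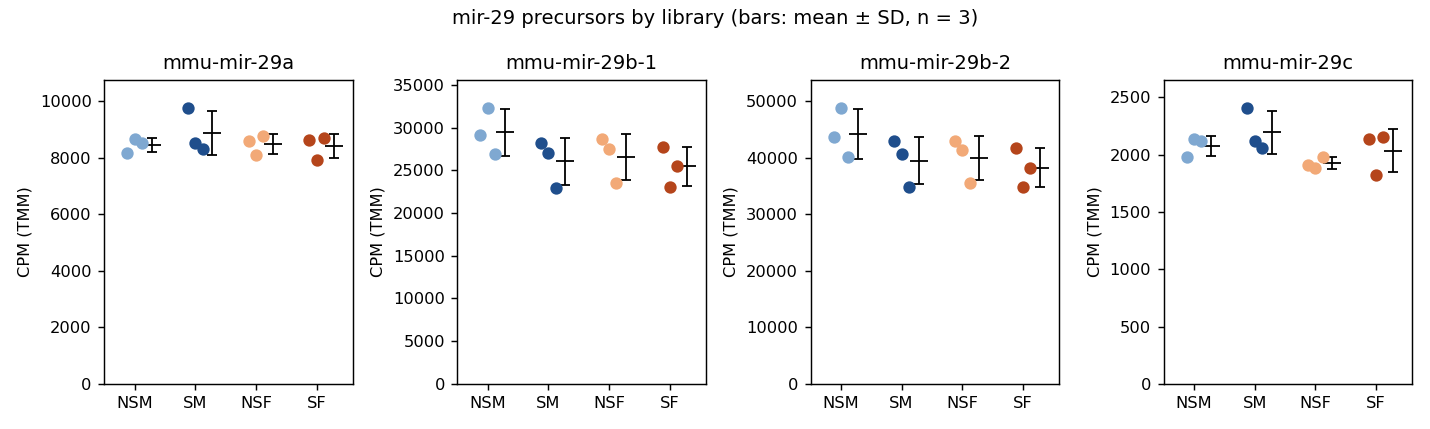
Levels of the 4 mir-29 precursors in each small RNA library, in TMM-scaled CPM, with the axis starting at 0; points are libraries and bars are the group mean ± SD (n = 3). In every panel stressed and nonstressed points of the same sex overlap, and mmu-mir-29a lies between 7911 and 9774 CPM throughout.

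The order of the group means differed between members. For mmu-mir-29b-2 it ran from NSM (44238 ± 4390 CPM, SD, n = 3) through NSF (40003 ± 3880) and SM (39526 ± 4170) to SF (38274 ± 3410). For mmu-mir-29b-1 the order was NSM (29443 ± 2760 CPM), NSF (26570 ± 2660), SM (26043 ± 2800) and SF (25466 ± 2330). For mmu-mir-29c the highest mean was that of SM (2195 ± 190 CPM), followed by NSM (2079 ± 86.7), SF (2036 ± 185) and NSF (1925 ± 51). For mmu-mir-29a, SM (8872 ± 787 CPM) was followed by NSF (8496 ± 351), NSM (8448 ± 258) and SF (8407 ± 432). Neighbours in these orders differed by less than the SD of at least 1 of them in each case except the step from NSM to NSF of mmu-mir-29b-1, which exceeded both SDs by little and did not pass the test below.

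To ask whether SCVS changed the family in either sex, the members were fitted with all tested precursors by limma-voom over the 12 libraries, and the study's thresholds set a call (fold 1.3 or more in either direction, p below 0.05 before adjustment). In males, 0 of the 4 members were called, against 5.20% of all tested precursors. The study applied these thresholds to mature forms, and a change in a single arm may not show in the precursor counts used here. mmu-mir-29b-1 was 0.884-fold in SM relative to NSM (log2 -0.18 ± 0.10 SE, limma adjusted p = 0.489). This value was -0.06 without the third SM library and -0.11 without the second NSM library. mmu-mir-29b-2 was 0.894-fold (log2 -0.16 ± 0.10, limma adjusted p = 0.532). mmu-mir-29a and mmu-mir-29c both stood at 1.05-fold, with limma adjusted p = 0.762 for each. The 95% intervals of the fold ran from 0.761 to 1.03 for mmu-mir-29b-1 and from 0.941 to 1.17 for mmu-mir-29a. A change of up to about the fold threshold in mmu-mir-29b-1 was therefore not excluded at this number of pools.

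In females, 0 of the 4 members were called, against 4.80% of tested precursors. The log2 differences of SF from NSF were -0.02 ± 0.07 for mmu-mir-29a, -0.06 ± 0.10 for mmu-mir-29b-1, -0.06 ± 0.10 for mmu-mir-29b-2 and 0.08 ± 0.08 for mmu-mir-29c. The lowest limma adjusted p among them was 0.89. The intervals of the fold spanned 0.825 to 1.19 over the 4 members.

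The sex-by-stress interaction asks whether the stress difference itself differed between females and males. Again 0 of the 4 members were called, against 6.80% of tested precursors, and the log2 interaction ranged from -0.08 for mmu-mir-29a to 0.12 for mmu-mir-29b-1 (lowest limma adjusted p = 0.849). Between nonstressed mice of the 2 sexes, 0 of the 4 were called, against 7.60%. In that comparison mmu-mir-29b-1 was 0.902-fold in NSF relative to NSM (limma adjusted p = 0.541) and mmu-mir-29a 1.01-fold (limma adjusted p = 0.964). Between stressed mice of the 2 sexes, 0 of the 4 were called, against 5.20%, and all 4 point estimates were lower in SF, by at most 0.11 on the log2 scale.

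**Figure D2:**
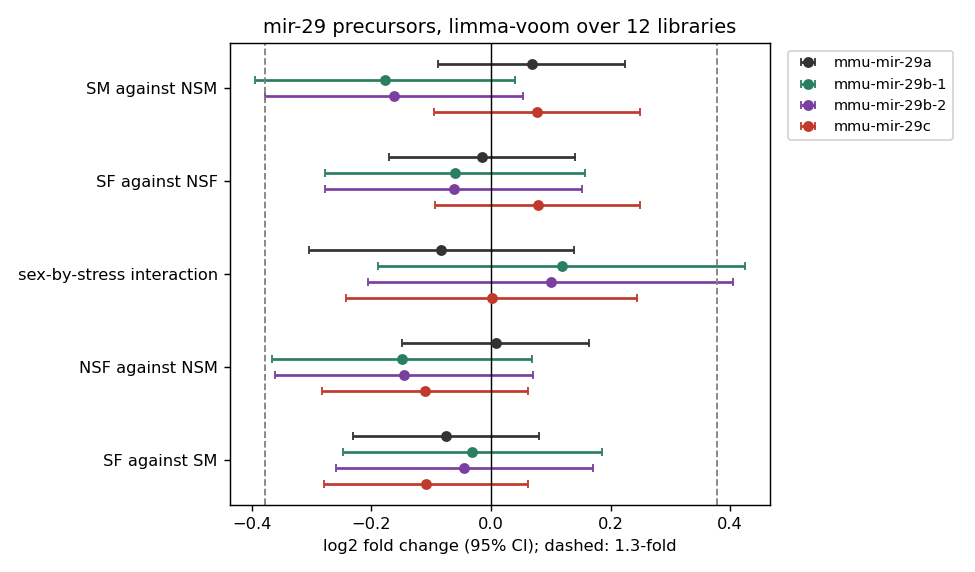
Log2 fold change of each mir-29 precursor in the 5 comparisons, with 95% confidence intervals from limma-voom (n = 3 libraries per group); dashed lines mark 1.3-fold. Every interval crosses 0, and the point estimates lie between -0.18 and 0.12.

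Within the family, mmu-mir-29b-2 took 51.9% ± 0.655 (SD, n = 12) of the reads, mmu-mir-29b-1 34.4% ± 0.543, mmu-mir-29a 11% ± 0.96 and mmu-mir-29c 2.65% ± 0.241. The ratio of mmu-mir-29b-2 to mmu-mir-29b-1 was nearly fixed, at 1.5 to 1.53 in every library, with an SD of 0.00984 on the log2 scale. These rows share their 3p arm, and how reads that match both loci were assigned was not given in the sources used here. They are therefore not independent measures of the 2 loci, and the shares within the family may depend on that assignment. Over 24 other pairs of rows that share a mature form, the same SD ranged from 0.00567 to 0.149 with a median of 0.0328.

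The ratio of mmu-mir-29c to mmu-mir-29a was also narrow, although these precursors lie on different chromosomes. Its log2 value was between -2.04 and -2.01 in the NSM libraries and between -2.02 and -2.01 in the SM libraries. In the NSF libraries it was between -2.17 and -2.10, and in the SF libraries between -2.12 and -2.01. NSF thus lay below both male groups without overlap, and overlapped SF. This ratio was examined after its values were seen and was not tested.

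The ratio of mmu-mir-29b-1 to mmu-mir-29a varied more between pools. Its log2 value was 1.83, 1.90 and 1.66 in NSM and 1.53, 1.67 and 1.46 in SM. It was 1.73, 1.76 and 1.42 in NSF and 1.69, 1.55 and 1.55 in SF. The groups overlapped, and the lowest value was in an NSF library.

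**Figure D3:**
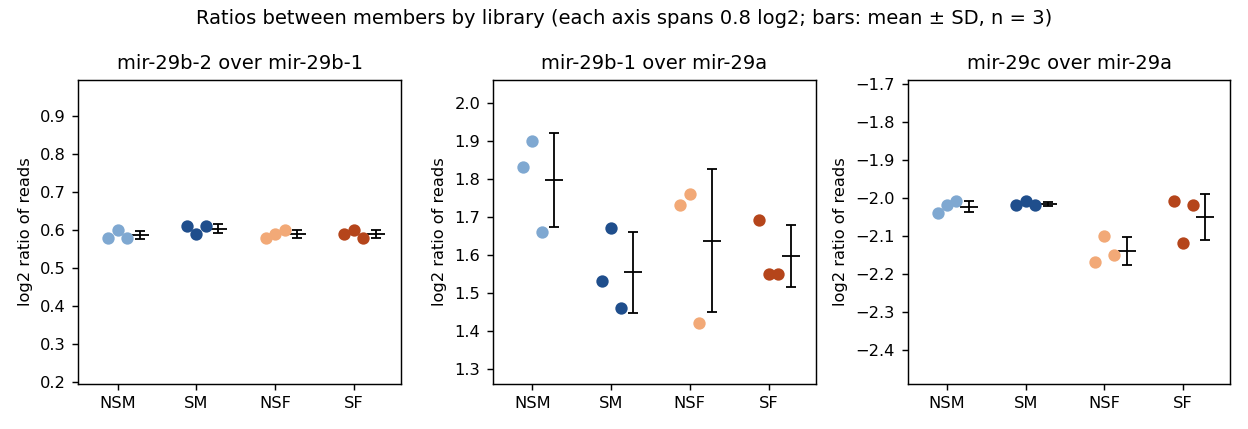
Log2 ratios of reads between members in each small RNA library, on 3 axes of equal span; points are libraries and bars are the group mean ± SD (n = 3). The ratio of mir-29b-2 to mir-29b-1 stays between 0.58 and 0.61, that of mir-29c to mir-29a between -2.17 and -2.01, and that of mir-29b-1 to mir-29a spreads from 1.42 to 1.90.

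Across the 12 libraries, levels correlated more closely within the pairs nearest in mature sequence than within the chromosome pairs. As a description over libraries that share an assay and 1 sequencing lane, Pearson's r of log2 CPM was 0.998 between mmu-mir-29b-1 and mmu-mir-29b-2 and 0.841 between mmu-mir-29a and mmu-mir-29c. Within the chromosome 6 pair, mmu-mir-29a and mmu-mir-29b-1, r was 0.271, and within the chromosome 1 pair, mmu-mir-29b-2 and mmu-mir-29c, it was 0.344. The mir-29b rows share a mature sequence and do not measure their loci separately. Their r is therefore no measure of likeness, and r within a chromosome pair does not separate the loci. Whether members resemble each other by sequence or by chromosome was not tested. Each member was compared with 281 other precursors of at least 100 mean reads. The nearest to mmu-mir-29a were mmu-mir-300 (r = 0.898), mmu-mir-29c and mmu-mir-493 (r = 0.835). Beside each other, the nearest to both mir-29b rows were mmu-mir-137 (r = 0.897 with mmu-mir-29b-1) and mmu-mir-376a (r = 0.878 with mmu-mir-29b-1). The nearest to mmu-mir-29c were mmu-mir-190a (r = 0.896), mmu-mir-376c (r = 0.861) and mmu-mir-300 (r = 0.857). Precursors outside the family thus had a higher r with mmu-mir-29a, and with mmu-mir-29c, than these members had with each other.

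The mRNA libraries came from the same homogenates and were searched for a host transcript of the chromosome 1 pair. The model A330023F24Rik carries a gene identifier that is not a row of the mRNA counts used here. A lincRNA gene named mmu-mir-29b-2 in the study's own gene list, ENSMUSG00000096929, was counted, and its position could not be checked in the annotation used here. It is described because of that name, it was chosen after its values were seen, and whether it is the primary transcript of the precursors was not tested. Its NSM libraries held 73.5, 65.9 and 90.8 CPM and its SM libraries 45.8, 43 and 68.2 CPM. The NSF libraries held 58.6, 67.5 and 76 CPM and the SF libraries 66.9, 56.1 and 47.9 CPM. In males the groups overlapped by 1 library, and in females they overlapped broadly.

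In males this lincRNA fell to 0.673-fold (log2 -0.57 ± 0.17 SE) and was called, with a limma adjusted p = 0.0816, where 6.44% of 18593 tested genes were called. In females ENSMUSG00000096929 stood at 0.843-fold (limma adjusted p = 0.948), and the interaction was not called (log2 0.32 ± 0.24, limma adjusted p = 0.723), so a difference between the sexes was not shown. Neither precursor of the chromosome 1 pair was called in males.

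Over the 12 pools, no relation between the lincRNA and a member passed the test. A test of mmu-mir-29c against a host gene was planned, but this lincRNA and the other members were added. Pearson's r was -0.323 (permutation p = 0.306, adjusted p = 0.611 over 4 relations, one per member) and Spearman's rho was -0.357 (permutation p = 0.255, adjusted p = 0.751), both two-sided. Without the 2 pools farthest from the median lincRNA level, both SM, r was 0.14, and within groups it was -0.184. With mmu-mir-29b-2, r was -0.0313 (permutation p = 0.921, adjusted p = 0.951) and rho was -0.105 (permutation p = 0.751, adjusted p = 0.751). Without the same 2 pools that r was 0.112, and within groups it was -0.614. The within-group r was similar for the other mir-29b row, mmu-mir-29b-1 (-0.629), and was -0.266 for mmu-mir-29a, both on chromosome 6. With mmu-mir-29a and mmu-mir-29b-1, r was -0.354 (permutation p = 0.263, adjusted p = 0.611) and -0.0202 (permutation p = 0.951, adjusted p = 0.951), and rho was -0.245 (permutation p = 0.443, adjusted p = 0.751) and -0.119 (permutation p = 0.716, adjusted p = 0.751).

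**Figure D4:**
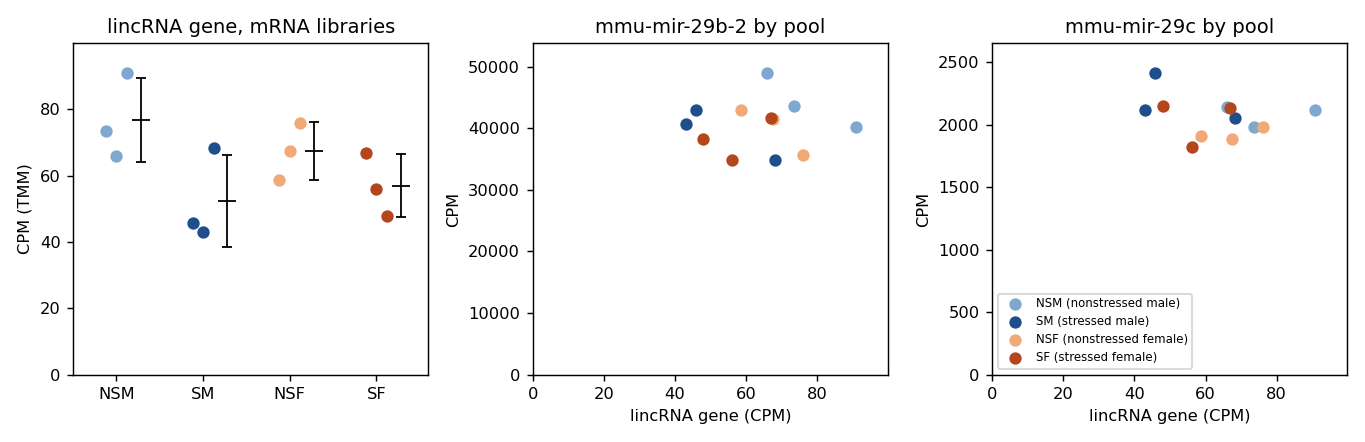
Left, level of the lincRNA gene ENSMUSG00000096929 in each mRNA library in CPM, with the group mean ± SD (n = 3); middle and right, mmu-mir-29b-2 and mmu-mir-29c in the small RNA library of the same pool against it, with all axes starting at 0. The SM pools include the lowest lincRNA values, 43 and 45.8 CPM, and 1 of these pools has the highest mmu-mir-29c value, 2412 CPM.

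Genes known as mir-29 targets were then followed in the mRNA libraries, from a list of 53 grouped by role. The list was written with earlier results of these data known, so shares called and medians over it are descriptions and not tests. Of these, 52 were tested and Hdac4 was left out because its name belongs to 2 gene identifiers. The site that pairs with the family seed reads TGGTGCT in the sense strand of a 3′ UTR, or TGGTGCTA with an A after it. Of the 51 listed genes with an annotated 3′ UTR, 82.4% held TGGTGCT and 52.9% held TGGTGCTA, where 14.8% and 3.12% of the 15321 tested genes with a 3′ UTR did. Whether the listed genes were first named as targets through such sites was not examined, so these shares are a description. UTRs with TGGTGCT were longer, with a median of 2264 bases against 1143 over all. Sites of some of the genes described next, taken from the NCBIM37 genome with the match in capitals, were as follows.
Col4a1 (chr8:11199761-11199783, minus strand): gccaccgtcacaacaTGGTGCTA
Fbn1 (chr2:125126909-125126931, minus strand): tttctgttgtctgttTGGTGCTA
Bmf (chr2:118357092-118357114, minus strand): tgtaaggaaagacatTGGTGCTA
Hrk (chr5:118635096-118635118, plus strand): cacttcacagtttctTGGTGCTA
Dnmt3a (chr12:3911390-3911412, plus strand): cccaggggaggtagcTGGTGCTA
A match of these letters is a description and not a measured site of binding.

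In males, 7 of the 52 genes were called, 2 higher and 5 lower, which is 13.5% beside 6.44% of all tested genes (2.36% higher and 4.08% lower). The median log2 fold change of the list was -0.081, beside -0.012 over all tested genes. The calls were mostly in the matrix group, where 1 of 26 rose and 5 fell and the median was -0.26. In a bulk tissue, fewer cells of a type and less RNA per cell cannot be told apart.

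Among the matrix genes, Col1a2, a chain of fibrillar collagen I, was at 9.85, 10.3 and 10.9 CPM in NSM and 7.98, 6.42 and 8.04 CPM in SM, and fell without overlap (log2 -0.48 ± 0.11, limma adjusted p = 0.0365), where the groups of 23.0% of tested genes did not overlap. Serpinh1, the collagen chaperone HSP47, was at 12.9, 14.3 and 14.8 CPM in NSM and 9.36, 9.89 and 10.7 CPM in SM, and fell likewise (log2 -0.48 ± 0.12, limma adjusted p = 0.0466). Neither of their annotated 3′ UTRs held TGGTGCT. Col4a1, a basement membrane collagen, was at 29, 27.9 and 31.1 CPM in NSM and 21.1, 19 and 27.8 CPM in SM, and fell (log2 -0.39 ± 0.11, limma adjusted p = 0.0674). Its call was lost with edgeR, DESeq2 or quantile normalization, and without the third NSM library, the first SM library or the second SM library.

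Col11a1, a minor fibrillar collagen, was at 20.7, 22.8 and 34.4 CPM in NSM and 14.6, 9.48 and 21.6 CPM in SM, and fell (log2 -0.81 ± 0.27, limma adjusted p = 0.116). Col4a3, a chain of specialized basement membranes, fell (log2 -0.68 ± 0.24, limma adjusted p = 0.129) at under 1 CPM in every library, and its call was lost with DESeq2 and without the first NSM library. Fbn1, the microfibril protein fibrillin, rose (log2 0.52 ± 0.18, limma adjusted p = 0.129), a call lost without the second NSM library (log2 0.35). Adam12, a membrane metalloprotease, had a log2 fold change of -0.31 ± 0.08 that passed the adjusted threshold (limma adjusted p = 0.0483) but was under 1.3-fold. Sparc, a collagen-binding matrix protein and the highest of the group per kilobase, had a log2 fold change of -0.05 ± 0.08 (limma adjusted p = 0.743). Without 1 SM library, the second, Col1a2, Col4a1, Col4a3 and Col11a1 were no longer called and the list's calls in males went from 7 to 4, while without the third SM library they went to 13.

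Of the 6 DNA methylation genes, 0 were called in males. Dnmt3a, a de novo DNA methyltransferase with 5 matches to TGGTGCT, had a log2 fold change of -0.13 ± 0.05 (limma adjusted p = 0.17). Tet3, a methylcytosine dioxygenase, had one of -0.08 ± 0.08 (limma adjusted p = 0.581). Of the 7 apoptosis genes, 1 rose, the BH3-only gene Bmf (log2 0.43 ± 0.14, limma adjusted p = 0.109), a call lost without the first SM library (log2 0.32). Hrk, another BH3-only gene, was at 64.8, 62 and 61 CPM in NSM and 74.4, 82.2 and 73.5 CPM in SM, without overlap (log2 0.29 ± 0.06, limma adjusted p = 0.0245), and was under 1.3-fold. Bcl2, an antiapoptotic gene named here after its values were seen, had a log2 fold change of -0.36 (limma adjusted p = 0.0308), also under 1.3-fold. Mcl1, another antiapoptotic member of the BCL2 family, had a log2 fold change of 0.03 ± 0.06 (limma adjusted p = 0.8). Of the 13 signaling and other genes tested, 0 were called, and the highest per kilobase were Ywhae, a 14-3-3 adaptor (log2 0.07 ± 0.06, limma adjusted p = 0.47), and Vdac1, the mitochondrial outer membrane channel (log2 0.17 ± 0.06, limma adjusted p = 0.111).

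In females, 0 of the 52 genes were called by limma-voom, against 1.73% of all tested genes, and 1 had an unadjusted p under 0.05, against 4.23%. edgeR and DESeq2 also called 0. The median log2 fold change was -0.012 over the list and -0.127 over the matrix genes, beside -0.004 over all tested genes. Of the 26 matrix genes, 18 were lower and 8 higher in SF, where in males 19 were lower and 7 higher in SM. In the interaction, 1 of 52 was called, against 4.42% of tested genes: Serpinh1, whose stress difference was higher in females by 0.49 ± 0.17 on the log2 scale (limma adjusted p = 0.379). Between nonstressed mice, 3 of 52 were called, against 5.31% (4.17% higher and 1.15% lower). Col1a1, the other chain of collagen I, was higher in NSF (log2 0.67 ± 0.22, limma adjusted p = 0.163), as was Bbc3, the BH3-only gene Puma (log2 0.73 ± 0.24, limma adjusted p = 0.171), and Adam12 was lower (log2 -0.47 ± 0.08, limma adjusted p = 0.0285).

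**Figure D5:**
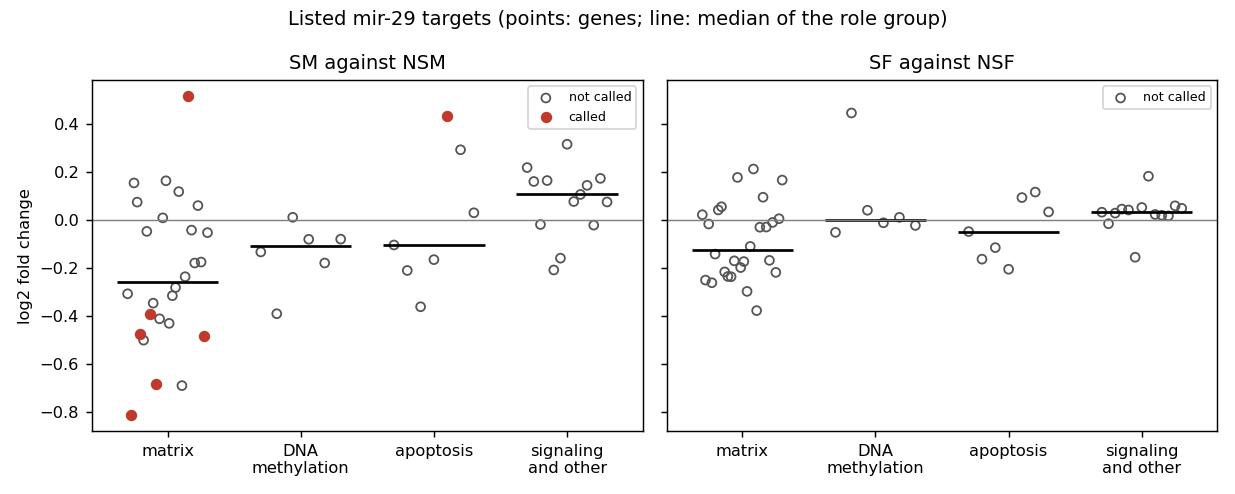
Log2 fold change of each of the 52 tested targets by role, in males (left) and females (right); filled points were called, open points were not, and lines are medians of the role groups. In males the matrix median is -0.26 with 5 genes called lower and 1 higher, and in females no gene is called.

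Over all tested genes, those with TGGTGCT in the 3′ UTR had a median log2 fold change of -0.016 in males and those without it -0.004. In females the medians were -0.002 and -0.001.

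Some marker lists also differed between the groups. The 5 cortical glutamatergic markers summed to between 5.36 and 21.2 CPM in NSM and between 47.7 and 196 CPM in SM, and 1 was called higher. The 6 striatal markers summed to between 3170 and 3550 CPM in NSM and between 3460 and 3900 CPM in SM, with 0 called. Of the other lists in males, 0 of 5 astrocyte markers were called. The 5 oligodendrocyte markers summed to between 4270 and 4780 CPM in NSM and between 5160 and 5200 CPM in SM without overlap, and 2 had an adjusted p under 0.05 while 0 reached 1.3-fold (median log2 0.22). The vascular and meningeal markers label cells that express matrix genes. In males 1 of 5 endothelial markers was called lower (median log2 of the list -0.01). Of 6 mural markers 1 was called higher (median log2 0.14), with sums of 132 to 135 CPM in NSM and 141 to 158 CPM in SM. Of 8 meningeal fibroblast markers 1 was called higher (median log2 0.21). In the small RNA libraries, 4 of 5 tested muscle markers and the 1 tested red blood cell marker were called higher in SM, and the 3 mir-124 precursors of neurons had 0 called. The other red blood cell marker (mir-451a), both oligodendrocyte markers (mir-219a-2 and mir-338) and 1 vessel marker (mir-126a) had too few reads to test. Of 40 precursors that overlap another listed precursor on the other strand, 39 had a mean under 1 read, and no mir-29 member was among the 40. The leukocyte marker mir-223 was between 2.23 and 5.06 CPM throughout. Nonstressed mice of the 2 sexes differed too. The tested muscle markers summed to between 328 and 448 CPM in NSM and between 596 and 704 CPM in NSF, and the cortical markers to between 21.1 and 363 CPM in NSF. The part of these differences in the results above was not tested.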

How the data were processed

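NAc RNA was split into a small and a large fraction. For small RNA-Seq the authors trimmed adaptors, aligned reads to mm9 with Bowtie and deposited raw read counts per miRBase precursor made with HTSeq. For RNA-Seq they aligned paired reads to Ensembl NCBIM37 with TopHat2 and deposited raw counts per gene from HTSeq. Versions of these tools and the strand setting are not given in the sources used here.

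A feature was kept where 80% or more of a group's libraries held over 5 reads (500 of 1180 precursors and 18593 of 38293 genes), scaled by TMM and fitted by limma-voom (limma 3.58.1, edgeR 4.0.16, R 4.3.3) with 1 mean per group and the study's thresholds. The study states this filter for mRNA, and it was applied here to small RNA as well. P-values were adjusted by Benjamini-Hochberg over all features tested. Groups came from the sample labels, no pair of libraries held identical counts, and the procedure was tested on simulated data. P-values measure the spread between pools. Correlations used 100000 permutations. Alternatives were edgeR, DESeq2 1.42.0, other scalings and filters, a replicate block and leaving out each library. Target genes were named if called in any comparison or among the 2 highest per kilobase of exon in their role group. For each precursor the 3 most similar were named. 3′ UTRs and exon lengths came from GENCODE M1 (NCBIM37), taking the longest 3′ UTR of a gene. The planned rule for a host gene required a covering gene model and found none among the counted genes, so ENSMUSG00000096929 was added by name. The members and lists were chosen with earlier results of these data known.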

Additional observations from a re-analysis of the deposited data

Results flagged for a closer look

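Serpinh1 was called in the interaction term before adjustment, at 0.486 on the log2 scale (females minus males, limma adjusted p = 0.379). It was the only call among the 52 listed genes (1.92%), where 4.42% of all tested genes were called, so a difference between the sexes was not shown. The stress difference of Serpinh1 was -0.48 in males and 0.00 in females.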

How the results depend on the processing

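No member was called under any alternative run, 21 for each comparison of 2 groups and 20 for the interaction, which needs all groups, and 1 of the 416 member values so obtained (mmu-mir-29b-1 in males) had an unadjusted p under 0.05. Some log2 directions turned, and the cause was not tested. Under quantile normalization mmu-mir-29b-2 was at 0.102 in males, where the main fit gave -0.162. It was at 0.0 in females, -0.102 in the interaction and 0.0 between nonstressed mice, where the main fit gave -0.145. With the same normalization mmu-mir-29b-1 was at 0.0208 in females, while in males it kept its sign under all 21 alternatives. With library size only, mmu-mir-29a was at 0.0449 in females and -0.0223 between nonstressed mice, and Mcl1 at -0.0216 in males. The interaction of mmu-mir-29c was -0.0276 with DESeq2, -0.0283 with its size factors, -0.00505 with quantile normalization and -0.0353 with a filter of 1 read.

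Leaving out 1 library at a time, mmu-mir-29b-1 ranged from -0.238 to -0.0647 in males, and mmu-mir-29a ranged from -0.00365 to 0.135 in males, from -0.0489 to 0.0271 in females and from -0.017 to 0.0416 between nonstressed mice. In females mmu-mir-29b-1 ranged from -0.143 to 0.0067 and mmu-mir-29b-2 from -0.143 to 0.000291. The interaction ranged from -0.0139 to 0.16 for mmu-mir-29b-2 and from -0.0719 to 0.0666 for mmu-mir-29c. Between stressed mice mmu-mir-29b-1 ranged from -0.151 to 0.0227 and mmu-mir-29b-2 from -0.161 to 0.0125. In males Sparc ranged from -0.093 to 0.0299, Col1a1 from -0.0843 to 0.24, Mcl1 from -0.00127 to 0.0691 and Bbc3 from -0.555 to 0.0865. The listed targets called went from 7 to between 4 and 13 in males, from 0 to between 0 and 1 in females, from 1 to between 1 and 5 in the interaction and from 3 to between 2 and 8 between nonstressed mice. The lowest and highest counts in males came without SM replicates 2 and 3, the highest in the interaction without SM replicate 3, and the highest between nonstressed mice without NSM replicate 3. Each member's mean share of the family's reads moved by less than its SD. Among the other settings the male count lay between 5 and 9. The lincRNA ENSMUSG00000096929 was called in males under all 21, at -0.78 to -0.43 (adjusted p from 0.0205 to 0.304). Its r with mmu-mir-29c was -0.343 with library size only.

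The labels number the replicates alike in each group but name no shared source, and deviations of same-numbered male libraries had correlations of 0.058, -0.013 and 0.313 in small RNA and 0.0244, -0.000323 and 0.315 in mRNA. For females they were 0.112, 0.192 and 0.312 in small RNA and 0.101, 0.0779 and 0.107 in mRNA, so not every pair was over 0.1. With the replicate block, 0 members were called in any comparison, and 8 listed targets were called in males, 0 in females, 1 in the interaction and 4 between nonstressed mice.

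Counts per precursor, with a 3p arm shared by both mir-29b rows, do not show the arms or these 2 loci separately.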
